A study of Homo sapiens with 46 samples.

Results

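Frame-preserving cassette exons are exons longer than 30 and shorter than 300 bases whose length divides by 3, so that including or skipping one leaves the downstream reading frame as it was. They were picked from the cassette-exon events of the 4 deposited splicing tables by exon length alone. The rule uses no measured values, but it was chosen with earlier results of these data known. The rule gave 80183 distinct events of 298384 splicing events of all types, and these events held 41982 distinct exons, because 1 exon can be measured between several pairs of neighbouring exons. By table, 48120 of 179118 events belonged to the set in the 200 nM experiment, 37520 of 139012 in the 50 nM experiment, 59629 of 218608 in the siRNA experiment and 35248 of 138022 in the xenograft. In the GENCODE release 29 annotation (GRCh38), 98.56% of these exons were annotated and 78.59% were coding over their full length. An entering frame was found for 36426 exons, as the commonest frame in which protein-coding transcripts leave the upstream exons. In that frame 14.48% nevertheless held a stop codon. These included 2313 of 32718 exons coding in full (7.07%), so the frame is not always the one in which the exon is translated.

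The series holds 46 libraries in 14 groups. Its cell lines are MDA-MB-231, from a breast cancer, and U87MG, from a glioblastoma. Cells of either line received ASO-1570, an antisense oligonucleotide against TRA2B, or a control oligonucleotide (ASO-CTL), by lipofection for 48 hours and at 200 nM or 50 nM. A further experiment used a TRA2B siRNA or a control siRNA at 10 nM. Each of these groups held 3 libraries of 1 cell line. A breast carcinoma patient-derived xenograft (PDX), described in the labels as grown in immunocompetent mice, received intratumoral ASO-1570 or ASO-CTL at 50 mg/kg 3 times weekly for 4 weeks, with 5 libraries per group. All xenograft libraries came from 1 tumour model. For MDA-MB-231, a conflicting glioblastoma entry stands in the cell type field at 50 nM and in the siRNA experiment, and the cell line field was followed. The labels do not say whether libraries of a group came from separate cultures, so the p-values measure the spread between these libraries, which may be technical.

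TRA2B is a splicing regulator related to the SR proteins, and it binds purine-rich RNA stretches built around AGAA, mostly inside exons, where its binding is known to favour inclusion. Its own transcript carries a conserved poison exon, which brings in a premature stop when included and so lowers the amount of protein. A frame-preserving exon usually changes a stretch of protein without truncating it, whereas a poison exon of the same length class truncates it through its own stop codon. The measurement is the percent spliced in (PSI), given by the authors as a fraction from 0 (exon skipped in all transcripts measured) to 1 (exon included in all).

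The exons printed here carry the main patterns and were copied from GENCODE release 29 transcripts (GRCh38), 5′ to 3′ on the transcript strand. The TRA2B poison exon (chr3:185931577-185931852, minus strand) is shown from its first base through its in-frame stop, which is in capitals. In all other exons, capitals mark AGAA. SEC31A (chr4:82862534-82862572, minus) and HNRNPK (chr9:83972844-83972972, minus) are exons that fell in both cell lines and hold no AGAA, MYO18A (chr17:29085604-29085648, minus) is one that fell in both lines and holds 3 copies, CALD1 (chr7:134935688-134935765, plus) and BAZ2A (chr12:56605992-56606063, minus) are purine-rich exons that fell in U87MG, and AKR1C2 (chr10:4999200-4999277, minus) is an exon whose response differed between the lines. CTNND1 (chr11:57815915-57816001, plus) and EXOC1 (chr4:55888888-55888932, plus) rose, and CNN3 (chr1:94902121-94902258, minus) is an exon with low inclusion in the ASO-CTL libraries alone.
TRA2B: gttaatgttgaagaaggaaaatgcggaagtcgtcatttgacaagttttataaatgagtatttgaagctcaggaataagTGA
SEC31A: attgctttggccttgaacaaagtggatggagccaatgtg
HNRNPK: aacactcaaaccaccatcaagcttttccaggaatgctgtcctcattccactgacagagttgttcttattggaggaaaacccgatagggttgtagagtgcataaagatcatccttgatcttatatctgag
MYO18A: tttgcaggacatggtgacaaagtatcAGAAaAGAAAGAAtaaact
CALD1: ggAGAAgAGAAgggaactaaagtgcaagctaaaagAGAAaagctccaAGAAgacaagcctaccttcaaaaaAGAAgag
BAZ2A: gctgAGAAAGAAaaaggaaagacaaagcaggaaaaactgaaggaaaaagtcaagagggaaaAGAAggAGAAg
AKR1C2: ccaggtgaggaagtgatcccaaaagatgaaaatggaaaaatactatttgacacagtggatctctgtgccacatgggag
CTNND1: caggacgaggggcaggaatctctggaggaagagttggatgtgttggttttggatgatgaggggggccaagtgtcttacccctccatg
EXOC1: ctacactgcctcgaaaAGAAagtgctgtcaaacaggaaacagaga
CNN3: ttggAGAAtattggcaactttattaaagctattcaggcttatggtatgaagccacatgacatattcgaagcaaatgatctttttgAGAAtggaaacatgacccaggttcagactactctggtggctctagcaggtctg

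Libraries of the 200 nM experiment were the deepest, with total gene counts of 259.9 to 356.8 M (mega). The totals were 78.6 to 112.8 M at 50 nM, 75 to 111.1 M with the siRNAs and 75.3 to 109.6 M for the xenograft. Read counts behind each PSI value are not in the authors' splicing tables, so the depth of single events is unknown. The epithelial marker EPCAM stood at 25.7 to 32.5 CPM (counts scaled to the library total) in the MDA-MB-231 libraries of the 200 nM experiment and at 0.389 to 0.54 CPM in the U87MG libraries, and the glioma-associated gene TNC at 1630 to 2240 CPM in U87MG. In MDA-MB-231 TNC stood at 33.9 to 101 CPM. The glial marker GFAP was near 0 in U87MG, at 0.053 to 0.101 CPM, and at 1.73 to 3.39 CPM in MDA-MB-231. Other glioma-associated genes were mixed in these libraries. NES was alike, at 10.9 to 29.2 CPM in U87MG and 12.1 to 24.8 CPM in MDA-MB-231. PTPRZ1 was low in both, at 0.0853 to 0.28 CPM and 0.0154 to 0.158 CPM. CHI3L1 stood at 31.5 to 62 CPM in U87MG and 0 CPM in MDA-MB-231. For MDA-MB-231, EPCAM stood at 28.8 to 33.4 CPM at 50 nM and at 34.6 to 38.3 CPM with the siRNAs. The U87MG libraries of these experiments had 0.428 to 0.652 CPM and 0.395 to 0.666 CPM, so EPCAM followed the cell line field. TRA2B gene level fell with ASO-1570 by 0.87 (MDA-MB-231) and 1.03 (U87MG) on the log2 scale at 200 nM and by 0.76 and 1.13 at 50 nM, and with the siRNA by 3.11 and 2.83 (edgeR, adjusted p in each below the threshold of 0.05). In the xenograft its log2 change was -0.16 (edgeR adjusted p = 0.707). In the xenograft, mitochondrial genes took 22.76% to 75.31% of the counts in ASO-1570 libraries and 17.65% to 53.89% in ASO-CTL libraries, against 1.73% to 3.16% in the cell lines. Their part in the xenograft results was not tested.

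The poison exon of TRA2B is itself a member of this class. It occurs only in transcripts not classed as protein-coding, and reaches a stop codon at base 79. The TRA2B exon holds 12 copies of AGAA and 3 of GAAGAA. In U87MG at 200 nM its PSI was 0.418, 0.553 and 0.497 with ASO-1570 and 0.091, 0.1 and 0.102 with ASO-CTL, a rise of 0.392 (SE 0.036, limma adjusted p = 0.00185). At 50 nM the same line gave 0.558, 0.592 and 0.457 with ASO-1570 and 0.153, 0.168 and 0.149 with ASO-CTL, and the exon again passed the test (limma adjusted p = 0.00415). In MDA-MB-231 at 200 nM the values were 0.402, 0.556 and 0.301 with ASO-1570 and 0.16, 0.159 and 0.161 with ASO-CTL. The groups did not overlap there, but the spread among ASO-1570 libraries was wide and the exon was not called (difference 0.26, limma adjusted p = 0.131). The exact two-sided permutation test gave p = 0.1 in each of the 4 oligonucleotide comparisons of cell lines, the smallest value that 3 against 3 libraries allow.

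With the siRNA, which lowers the whole transcript, the TRA2B poison exon had PSI 0.379, 0.168 and 0.192 in TRA2B siRNA libraries of MDA-MB-231 and 0.228, 0.213 and 0.179 in control siRNA libraries. In U87MG it had 0.174, 0.131 and 0.112 with the TRA2B siRNA and 0.096, 0.129 and 0.112 with the control siRNA. The groups overlapped in both lines (exact two-sided permutation test, p = 0.9 in MDA-MB-231 and p = 0.3 in U87MG). The MDA-MB-231 difference of 0.04 became -0.027 without TRA2B siRNA replicate 1. In the xenograft the exon was near full inclusion in both arms, at 1.0, 0.966, 1.0, 0.969 and 1.0 with ASO-1570 and 0.959, 1.0, 1.0, 0.991 and 0.823 with ASO-CTL. These groups overlapped (exact two-sided permutation test, p = 0.484, smallest possible 0.00794), and the difference of 0.032 became -0.001 without ASO-CTL replicate 5.

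Across the class, exons were lost more often than gained with 200 nM ASO-1570. In U87MG, 3717 of the 19923 events tested fell and 929 rose, so 23.3% were called, against 19.6% of all splicing events tested. In MDA-MB-231, 269 of 15706 events fell and 78 rose, or 2.21%, against 1.42% of all events. An event was tested when every library of the comparison had a value and these values spanned at least 0.05, and it was called when limma's adjusted p was below 0.05 and the mean PSI differed by at least 0.10. By direction, falling events were 14.1% and rising events 5.47% of all events tested in U87MG, and 1.03% and 0.394% in MDA-MB-231. Falling members made up 80% of the called events in U87MG and 77.5% in MDA-MB-231. The balance varied with the starting level. In U87MG, 11591 of the events tested and 2825 of those that fell had an ASO-CTL mean from 0.9 to 1.0. An event above 0.9 cannot rise by 0.10. Where that mean lay from 0.1 to 0.5, 416 events rose and 233 fell in U87MG, and 47 rose and 30 fell in MDA-MB-231. The called events of U87MG held 3086 exons that fell and 799 that rose, in 2748 genes, and those of MDA-MB-231 held 255 and 74 exons in 307 genes. The MDA-MB-231 count rested on single libraries: it was 854 without ASO-1570 replicate 3 and lay between 44 and 62 without any 1 of the 5 other libraries.

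The fall was also visible in the library means. The mean PSI over the events tested in U87MG at 200 nM was 0.731, 0.715 and 0.727 with ASO-1570 and 0.78, 0.782 and 0.782 with ASO-CTL. In MDA-MB-231 it was 0.726, 0.725 and 0.742 with ASO-1570 and 0.757, 0.759 and 0.763 with ASO-CTL. In both lines every ASO-1570 library lay below every ASO-CTL library, and the same held at 50 nM. With the TRA2B siRNA the means were 0.733, 0.728 and 0.727, against 0.725, 0.728 and 0.732 with the control siRNA in MDA-MB-231. In U87MG they were 0.728, 0.731 and 0.73 with the TRA2B siRNA and 0.731, 0.732 and 0.731 with the control siRNA.

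**Figure D1:**
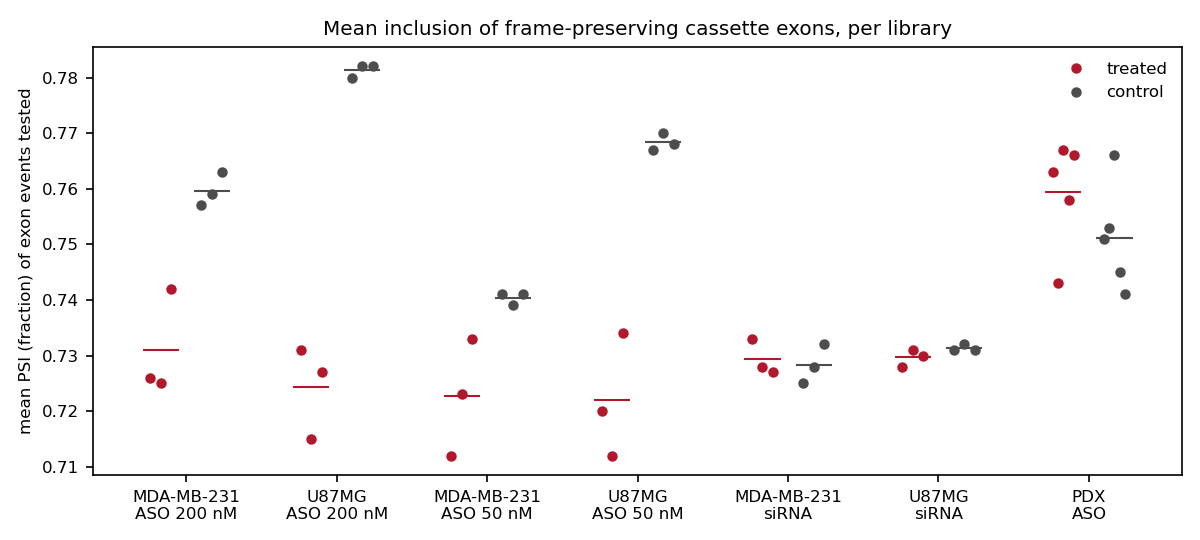
Mean PSI (fraction, vertical axis) of the frame-preserving cassette exons tested in each comparison, 1 point per library and a bar at each group mean, with treated libraries (red) left of their controls (grey). The vertical axis does not start at 0. In U87MG at 200 nM the ASO-1570 libraries lie between 0.715 and 0.731 and the ASO-CTL libraries between 0.78 and 0.782, while the MDA-MB-231 siRNA libraries lie between 0.727 and 0.733 with the TRA2B siRNA and between 0.725 and 0.732 with the control siRNA.

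Frame-shifting cassette exons of the same length range, given here only for scale, were called in 21.4% of tested events in U87MG and 1.61% in MDA-MB-231 at 200 nM. Their falling share among called events was 79.9% in U87MG and 80.7% in MDA-MB-231. No test of the difference between the classes was made.

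**Figure D2:**
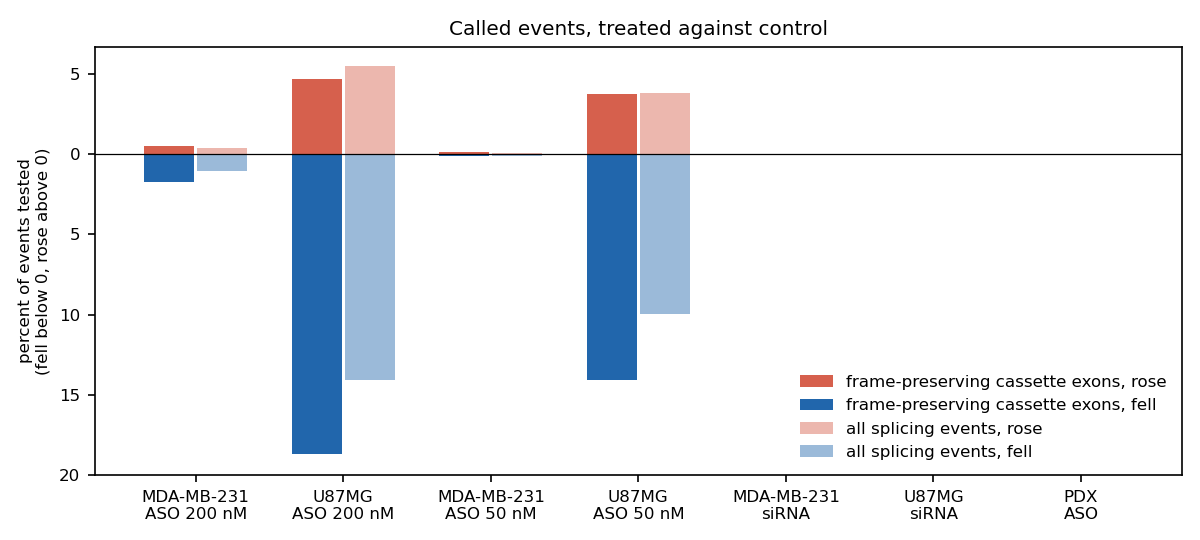
Percent of tested events that rose (red, above 0) or fell (blue, below 0), in dark colours for frame-preserving cassette exons and in pale ones for all splicing events (limma adjusted p below 0.05 and a PSI difference of at least 0.10) in each of the 7 comparisons. Falling exons reach 18.7% in U87MG at 200 nM, against 14.1% of all events, and the siRNA and xenograft comparisons hold no called event.

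Of 13156 events tested in both lines at 200 nM, 203 were called as fallen in both and 55 as risen in both, and none was called in opposite directions. By the plainer rule that libraries do not overlap and differ by at least 0.10 the same way in both lines, 1019 members fell and 242 rose, or 9.58%, against 7.18% of all events, and at 50 nM 559 fell and 177 rose of 10651, or 6.91%, against 4.98%. The 258 called in both lines made up 77.5% of the events called in MDA-MB-231 and 7.1% of those called in U87MG. Among them, the largest falls were near-complete switches. An exon of 36 bases in FAT1, an atypical cadherin (chr4:186590368-186590403), had PSI 0.015, 0.041 and 0.041 with ASO-1570 and 1.0 in all 3 ASO-CTL libraries of MDA-MB-231. In U87MG the FAT1 exon had 0.093, 0.074 and 0.076 with ASO-1570 and again 1.0 in all 3 ASO-CTL libraries (limma adjusted p = 0.000285 in MDA-MB-231 and 0.000107 in U87MG). Exons in NUP42, a nuclear pore protein, and POLK, a translesion DNA polymerase, showed the same kind of change. Mean NUP42 PSI was 0.124 with ASO-1570 and 1.0 with ASO-CTL in MDA-MB-231, and 0.054 with ASO-1570 and 1.0 with ASO-CTL in U87MG. Mean POLK PSI was 0.06 with ASO-1570 and 1.0 with ASO-CTL in MDA-MB-231, and 0.171 with ASO-1570 and 1.0 with ASO-CTL in U87MG. These calls in FAT1, NUP42 and POLK held when any 1 library was left out. Of the 22 named exons called in MDA-MB-231 at 200 nM, 17 lost the call without some 1 library, and the exceptions were FAT1, NUP42, POLK, CNN3 and YY1AP1. None of the 38 named exons called in U87MG at 200 nM lost it.

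In genes of membrane traffic, the exon of 39 bases in SEC31A, a coat subunit of the vesicles that leave the endoplasmic reticulum, had PSI 0.367, 0.303 and 0.342 with ASO-1570 and 0.969, 0.969 and 0.961 with ASO-CTL in U87MG (difference -0.629, SE 0.028, limma adjusted p = 0.000303). The SEC31A exon in MDA-MB-231 had 0.6, 0.619 and 0.742 with ASO-1570 and 0.993, 0.98 and 0.992 with ASO-CTL (difference -0.335, SE 0.047, limma adjusted p = 0.0394). The SEC31A groups lay far apart in both lines. The exon of 57 bases in APP, the amyloid precursor protein (chr21:25997360-25997416), had 0.421, 0.437 and 0.43 with ASO-1570 and 0.755, 0.782 and 0.792 with ASO-CTL in U87MG, and 0.458, 0.49 and 0.557 with ASO-1570 and 0.836, 0.833 and 0.857 with ASO-CTL in MDA-MB-231. The APP exon fell by about the same amount in both lines, by 0.347 in U87MG and by 0.34 in MDA-MB-231. An exon of KLC1, a kinesin light chain, fell by 0.557 in U87MG and by 0.312 in MDA-MB-231. Over the list of 62 membrane traffic and endocytosis genes, 54 events fell and 22 rose of 238 tested in U87MG, so 31.93% were called, against 23.32% of all members tested (median difference -0.05, against -0.0417 over all members). In MDA-MB-231, 6 fell and 4 rose of 185, or 5.41%, against 2.21% of all members. The host gene lists were written with earlier results of these data known, and no list was tested against the other members. Shares and medians of all lists are by event, and 1 exon can give several events. The 238 events of the membrane traffic list in U87MG, for example, came from 148 exons.

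The exon of 129 bases in HNRNPK, an abundant KH-domain RNA-binding protein, had PSI 0.651, 0.626 and 0.632 with ASO-1570 and 1.0 in all 3 ASO-CTL libraries of U87MG (limma adjusted p = 0.000732). The HNRNPK exon in MDA-MB-231 had 0.726, 0.711 and 0.816 with ASO-1570 and 0.999, 1.0 and 1.0 with ASO-CTL (limma adjusted p = 0.0425). Control cells of either line included the HNRNPK exon almost without exception. An exon of 66 bases in RBM39, a splicing cofactor, fell by 0.754 in U87MG and by 0.733 in MDA-MB-231, although its ASO-CTL libraries were spread from 0.622 to 1.0 in U87MG. Of the 71 listed splicing and RNA-binding genes, 48 had a tested member in U87MG, and 41 of their 151 events fell while 8 rose, or 32.45%, against 23.32% of all members (median difference -0.059, against -0.0417). In MDA-MB-231, 7 events of this list fell and 1 rose of 106, or 7.55%, against 2.21%.

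The exon of 135 bases in CCNE1, cyclin E1, which drives entry into S phase, had PSI 0.36, 0.28 and 0.289 with ASO-1570 and 0.933, 0.94 and 0.957 with ASO-CTL in U87MG. In MDA-MB-231 the CCNE1 exon had 0.745, 0.738 and 0.816 with ASO-1570 and 0.978, 0.977 and 0.984 with ASO-CTL, a smaller fall (limma adjusted p = 0.0453). The exon that separates the long from the short form of NFYA, a subunit of the CCAAT-binding factor, had 0.218, 0.105 and 0.189 with ASO-1570 and 0.506, 0.46 and 0.589 with ASO-CTL in U87MG, and it also fell in MDA-MB-231 (difference -0.23, limma adjusted p = 0.0214). In U87MG, exons of BAZ2A, a chromatin remodelling subunit, and TAF1, the largest subunit of TFIID, were fully included in all ASO-CTL libraries and had mean PSI 0.292 and 0.414 with ASO-1570. The cell cycle, mitosis and DNA repair list gave 68 falling and 6 rising events of 290 tested in U87MG, or 25.52%, against 23.32% of all members (median -0.0498, against -0.0417), and 5 falling and 2 rising of 220 in MDA-MB-231, or 3.18%, against 2.21%. The chromatin and transcription list gave 73 falling and 19 rising of 325 in U87MG, or 28.31%, against 23.32% (median -0.0447, against -0.0417), and 4 falling and 1 rising of 229 in MDA-MB-231, or 2.18%, against 2.21%. The cell cycle list in U87MG and the chromatin list in MDA-MB-231 thus lay near the share of all members. As written, the chromatin list also includes PPFIBP1, which is no chromatin or transcription gene but a liprin of focal adhesions, and whose exon fell by 0.39 in U87MG.

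Among kinases and cell shape genes, an exon of 36 bases in CASK, a membrane-associated scaffold kinase, had PSI 0.336, 0.219 and 0.226 with ASO-1570 and 0.796, 0.8 and 0.903 with ASO-CTL in U87MG, and 0.118, 0.124 and 0.135 with ASO-1570 and 0.352, 0.35 and 0.378 with ASO-CTL in MDA-MB-231. The CASK groups did not overlap in either line, although control cells of the lines started from different levels. An exon of 45 bases in MYO18A, an unconventional myosin, fell by 0.306 in U87MG and by 0.279 in MDA-MB-231. The CALD1 exon, in caldesmon, which binds actin, had 0.144, 0.159 and 0.192 with ASO-1570 and 0.766, 0.796 and 0.766 with ASO-CTL in U87MG. In MDA-MB-231 the CALD1 values were 0.36, 0.363 and 0.543 with ASO-1570 and 0.804, 0.825 and 0.763 with ASO-CTL, which missed the threshold (limma adjusted p = 0.0504). The kinase and signalling list gave 45 falling and 13 rising events of 208 tested in U87MG, or 27.88%, against 23.32% of all members (median -0.0458, against -0.0417), and 8 falling and 0 rising of 146 in MDA-MB-231, or 5.48%, against 2.21%. A list of 9 genes with TRA2 target exons, from general knowledge, gave 17 falling and 12 rising events of 83 tested in U87MG. That was 34.94%, against 23.32% of all members, with a median difference of 0.0073, against -0.0417. In MDA-MB-231, 1 event of this list fell and 0 rose of 72, or 1.39%, against 2.21% (median -0.033, against -0.0227). The 83 events of U87MG came from only 30 exons, and the 72 of MDA-MB-231 from 28.

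**Figure D3:**
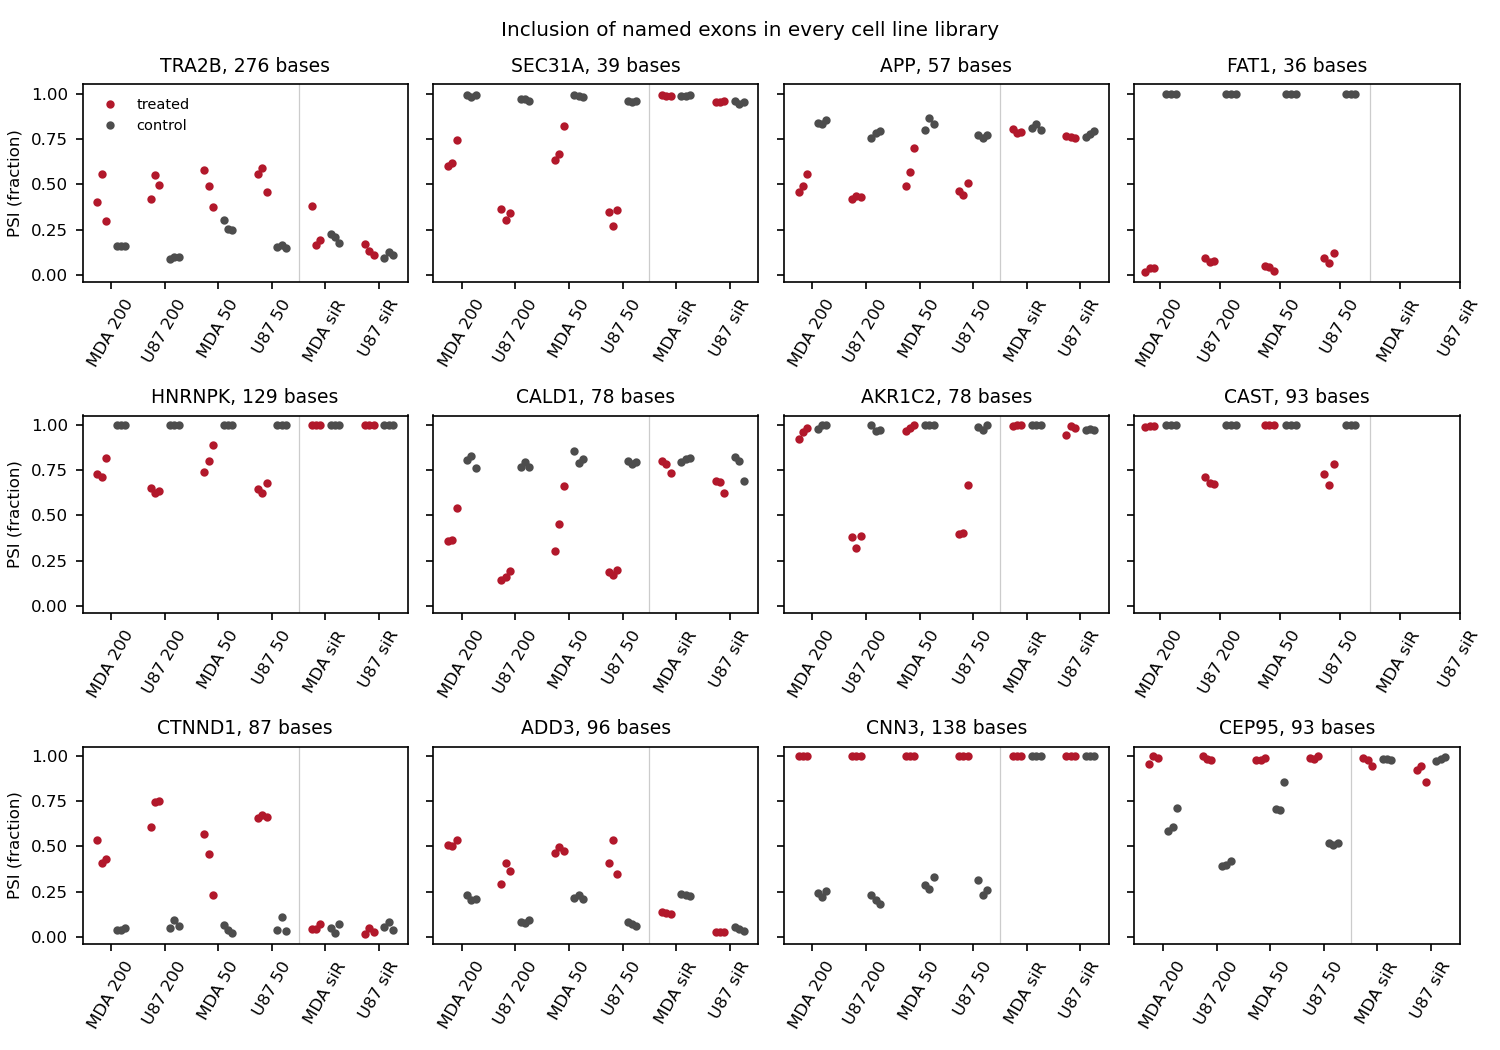
PSI (fraction, vertical axis) of 12 named exons in each cell line library, with ASO-1570 or TRA2B siRNA libraries (red) left of their controls (grey), 1 point per library. MDA and U87 stand for MDA-MB-231 and U87MG, 200 and 50 for the dose in nM, and siR for the siRNA experiment. SEC31A lies between 0.303 and 0.367 with 200 nM ASO-1570 in U87MG and between 0.943 and 0.992 in all siRNA libraries, and CNN3 is low only in ASO-CTL libraries.

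Fewer exons rose. The exon of 87 bases in CTNND1, p120-catenin, which binds cadherins at the membrane, had PSI 0.605, 0.745 and 0.752 with ASO-1570 and 0.052, 0.095 and 0.062 with ASO-CTL in U87MG (difference 0.631, SE 0.045, limma adjusted p = 0.001). The same exon in MDA-MB-231 had 0.537, 0.408 and 0.433 with ASO-1570 and 0.038, 0.042 and 0.053 with ASO-CTL (difference 0.415, SE 0.036, limma adjusted p = 0.0142). Control cells nearly always skipped the CTNND1 exon, and the groups did not overlap in either line. The exon of 96 bases in ADD3, an adducin of the membrane skeleton (chr10:110132305-110132400), had 0.294, 0.411 and 0.365 with ASO-1570 and 0.083, 0.079 and 0.093 with ASO-CTL in U87MG, and 0.508, 0.502 and 0.537 with ASO-1570 and 0.232, 0.206 and 0.212 with ASO-CTL in MDA-MB-231. The rise of the EXOC1 exon, in an exocyst subunit, was 0.263 in U87MG and 0.331 in MDA-MB-231. Exons of STX2, a syntaxin, and GOLGA4, a golgin, rose by 0.447 and 0.244 in U87MG and by 0.338 and 0.247 in MDA-MB-231. The list of actin, adhesion and cell shape genes gave 92 falling and 32 rising events of 339 tested in U87MG, or 36.58%, against 23.32% of all members (median -0.049, against -0.0417), and 8 falling and 12 rising of 275 in MDA-MB-231, or 7.27%, against 2.21%. Over all rising members of MDA-MB-231, a similar number had the ASO-CTL arm or the ASO-1570 arm alone away from siRNA controls, as given with CNN3.

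A higher PSI with ASO-1570 than with ASO-CTL can come from either arm, so both arms were set beside the siRNA control libraries of the same line. That level comes from a separate table, and the comparison was chosen after the values were seen and is a description. The exon of 138 bases in CNN3, calponin 3, which binds actin, had PSI 0.998, 0.997 and 0.998 with ASO-1570 and 0.244, 0.224 and 0.257 with ASO-CTL in MDA-MB-231 at 200 nM, and 1.0 in all 3 libraries with ASO-1570 and 0.235, 0.205 and 0.182 with ASO-CTL in U87MG. At 50 nM the CNN3 exon averaged 0.998 with ASO-1570 in both lines and 0.294 (MDA-MB-231) and 0.269 (U87MG) with ASO-CTL. Control siRNA libraries had a mean of 0.998 in MDA-MB-231 and 1.0 in U87MG. For CNN3, then, the ASO-CTL libraries stood apart and the ASO-1570 libraries did not. CEP95, a centrosomal protein, gave a mean of 0.985 with ASO-1570 and 0.404 with ASO-CTL in U87MG at 200 nM, against 0.98 in control siRNA libraries. YY1AP1 gave 0.845 with ASO-1570 and 0.058 with ASO-CTL, against 0.867 in control siRNA libraries.

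Of the 800 rising events of U87MG at 200 nM that also had control siRNA values, 430 (53.8%) had the ASO-1570 mean at least 0.10 away from the control siRNA mean and the ASO-CTL mean closer than that, and 180 (22.5%) had it the other way round. Of 2414 falling events, 2039 (84.5%) had only the ASO-1570 mean that far away and 65 (2.7%) only the ASO-CTL mean. In MDA-MB-231 the falling events split into 148 and 3 of 178, and the rising events into 32 and 29 of 69. Falling events were mostly ones in which the ASO-1570 libraries stood apart. Experiment and reagent cannot be told apart in this setting.

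Called exons differed in their starting level and in their sequence. Values are given by exon for U87MG at 200 nM, without a test. Control PSI is part of the difference by which events were called and bounds it. An event above 0.9 cannot rise by 0.10, so the split by call was partly fixed in advance. Each exon was given the highest control PSI over its tested events, which need not be that of the called event. The 52 exons with both a falling and a rising event were left out. This highest value was at least 0.9 in 83.4% of the 3034 exons that only fell. It was so in 19.8% of the 747 that only rose and in 64.2% of the 9607 that were not called. Exons coding in full made up 82.5% of the fallen, 49.3% of the risen and 72.3% of the uncalled. A stop codon in the commonest entering frame was found in 15.7% of the fallen, 31.7% of the risen and 19.3% of the uncalled exons that had one. These contrasts were not all found in MDA-MB-231 at 200 nM. There a stop was found in 23.7% of the fallen, 30.8% of the risen and 21.1% of the uncalled exons, and 71% of the fallen, 68.9% of the risen and 70.1% of the uncalled were coding in full. The upstream intron was taken as the shortest over an exon's events. Its median in U87MG was 2119.5 bases for fallen, 1803 for risen and 2721 for uncalled exons. By starting level in U87MG, 24.37% of events with control PSI from 0.9 to 1.0 fell, against 14.33% of those from 0.5 to 0.9 and 9.52% of those from 0.1 to 0.5, while 15.23% of events below 0.1 rose. Rising events were 6.89% of those from 0.5 to 0.9 and 17% of those from 0.1 to 0.5. From 0.1 to 0.5, rises thus outnumbered falls, by 416 to 233 in U87MG and by 47 to 30 in MDA-MB-231. An event near 0 or 1 has room to move one way only.

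AGAA was counted on the transcript strand of each exon, with overlapping copies counted separately. It occurred in 61.6% of the exons that fell in U87MG at 200 nM, in 51% of those that rose and in 55.6% of those not called, and in 56.8% of all tested members. Per 100 bases the mean count was 1.03 in fallen, 0.75 in risen and 0.91 in uncalled exons. In MDA-MB-231 at 200 nM, AGAA occurred in 60.9% of the 255 fallen, 58.1% of the 74 risen and 56% of the uncalled exons, at 1.13, 1.03 and 0.92 per 100 bases, so risen exons did not hold fewer copies than uncalled ones there. In U87MG the reverse complement TTCT, which marks AGAA on the other strand, occurred in 38.9% of fallen, 47.1% of risen and 41.7% of uncalled exons. GAAGAA, which contains AGAA, occurred in 13.5% of fallen, 7.9% of risen and 11.2% of uncalled exons in U87MG, and in 12.6%, 12.2% and 10.9% in MDA-MB-231. CALD1 held 5 copies of AGAA and BAZ2A 4, whereas the exons of SEC31A, HNRNPK and AKR1C2 held none, so falling exons were found both with and without the motif.

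**Figure D4:**
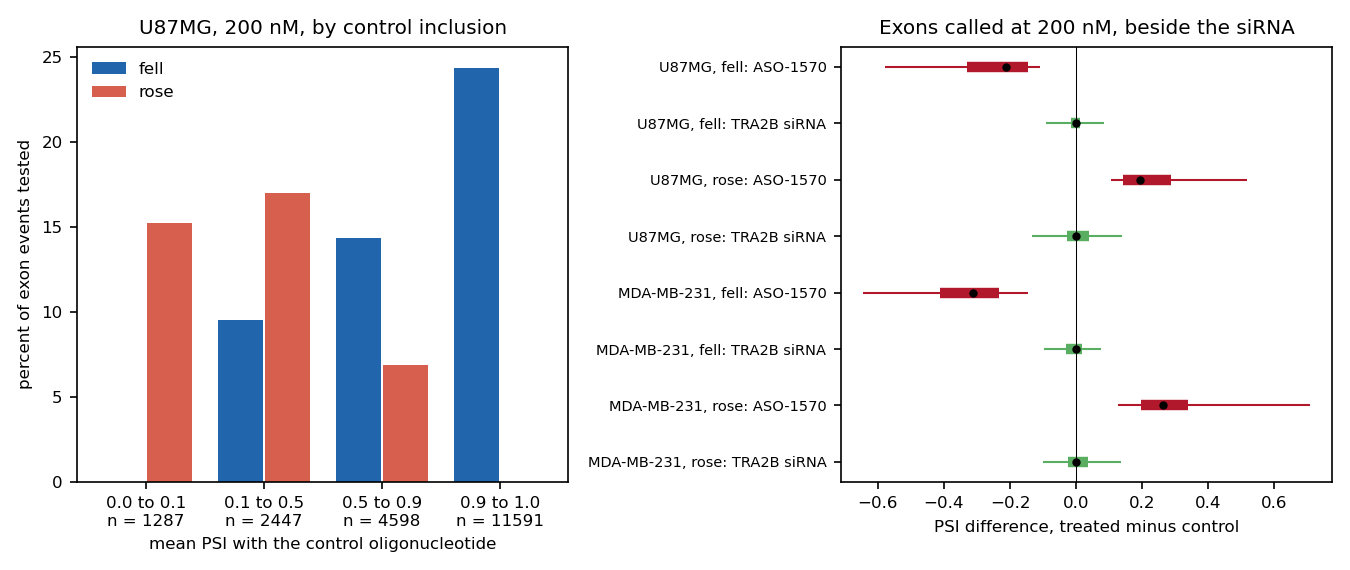
Left, percent of tested events that fell or rose in U87MG at 200 nM by mean control PSI (fraction); right, the PSI difference (treated minus control) of events called at 200 nM, with ASO-1570 and with the TRA2B siRNA, as median (point), middle 50% (thick line) and 5% to 95% range (thin line). Falls reach 24.37% in the highest control PSI class, and the siRNA differences centre on 0.

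The lines differed in how strongly the same exons responded. A limma interaction over the 4 groups of the 200 nM experiment called 2365 of 22091 members tested, 10.7%, against 8.08% of all events. In 1945 of them the change was higher (less negative or more positive) in MDA-MB-231 than in U87MG, 1893 of which fell more in U87MG, and in 420 it was lower. At 50 nM, 1216 of 17651 members were called, against a background of 4.89% of all events. Of the 3374 events called in U87MG alone among those tested in both lines, 94.6% had a smaller change in MDA-MB-231, with a median difference of -0.056 in MDA-MB-231 and -0.198 in U87MG. Of the 75 called in MDA-MB-231 alone, 6.7% had a smaller change in MDA-MB-231, with medians of -0.232 in MDA-MB-231 and -0.059 in U87MG. Picking events by their call in 1 line favours large values there, so these shares and medians are a description.

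**Figure D5:**
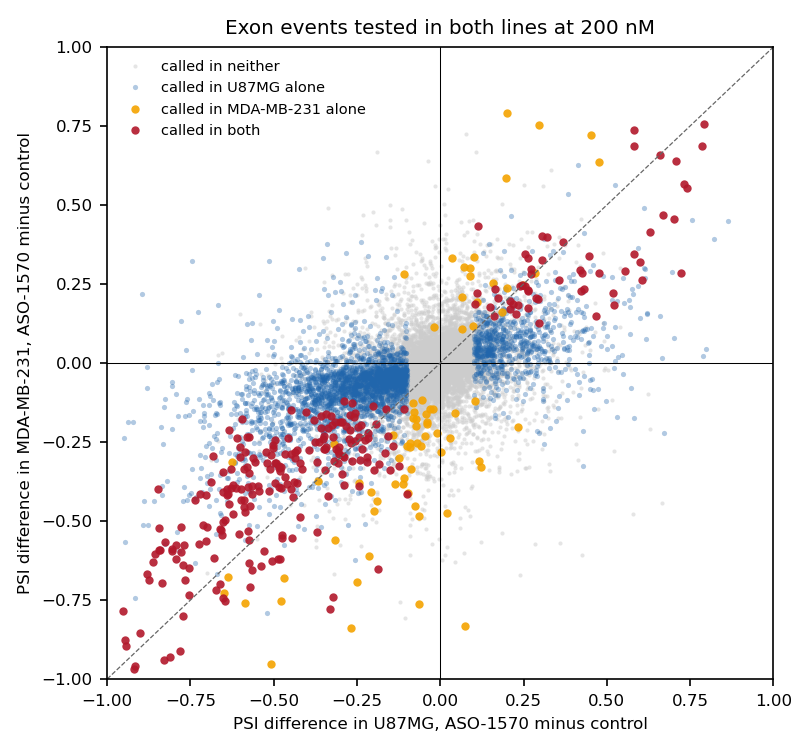
PSI difference (ASO-1570 minus ASO-CTL, 200 nM) of 13156 events tested in both lines, MDA-MB-231 on the vertical and U87MG on the horizontal axis, coloured by where the event was called, with a dashed line of equal change. The 258 events called in both lines lie in the lower left and upper right, and most of the 3374 called in U87MG alone lie closer to 0 in MDA-MB-231.

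AKR1C2, an aldo-keto reductase of steroid metabolism, gave the largest called line difference among the exons named here. Its exon of 78 bases had PSI 0.919, 0.957 and 0.983 with ASO-1570 and 0.974, 1.0 and 1.0 with ASO-CTL in MDA-MB-231, and 0.38, 0.32 and 0.384 with ASO-1570 and 0.998, 0.964 and 0.97 with ASO-CTL in U87MG (line difference 0.578, SE 0.037, limma adjusted p = 0.000143). AKR1C2 has near-identical neighbouring paralogs, so its reads are uncertain, and its gene level rose as well, by 2.55 on the log2 scale in U87MG (edgeR adjusted p = 2.62e-07). The exon of 93 bases in CAST, calpastatin, which inhibits calpain proteases (chr5:96741266-96741358), had 0.985, 0.994 and 0.993 with ASO-1570 and 1.0 throughout with ASO-CTL in MDA-MB-231, and 0.709, 0.678 and 0.674 with ASO-1570 and 0.998, 0.997 and 0.999 with ASO-CTL in U87MG. CAST thus fell in U87MG and moved by -0.009 in MDA-MB-231.

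PKM, pyruvate kinase of muscle and tumours, had an exon of 117 bases (chr15:72221168-72221284, coding in part) with PSI 0.727, 0.779 and 0.772 with ASO-1570 and 0.195, 0.188 and 0.186 with ASO-CTL in U87MG. In MDA-MB-231 the PKM exon had 0.257, 0.261 and 0.227 with ASO-1570 and 0.122, 0.2 and 0.144 with ASO-CTL, a difference of 0.093 that was not called. The line difference was -0.477 (SE 0.03, limma adjusted p = 0.000143). An exon of ARHGAP17, a GTPase-activating protein, rose in U87MG to a mean of 0.887 with ASO-1570, against 0.334 with ASO-CTL, while MDA-MB-231 had 0.928 with ASO-1570 and 0.737 with ASO-CTL (line difference -0.362, limma adjusted p = 0.00194). The variable exons of 90 and 102 bases in CD44, a hyaluronan receptor, rose in U87MG, to 0.438 and 0.341 with ASO-1570, against 0.141 and 0.085 with ASO-CTL. In MDA-MB-231 the CD44 means were 0.463 and 0.348 with ASO-1570 and 0.409 and 0.279 with ASO-CTL.

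At 50 nM in U87MG, 2250 of 16004 members tested fell and 603 rose, or 17.8%, against 13.8% of all events (9.95% falling and 3.84% rising). Without 1 of the 3 ASO-CTL libraries the count of 2853 was 1115 to 1182. In MDA-MB-231, 17 fell and 16 rose of 12558, or 0.263%, against 0.194% of all events (0.119% falling and 0.0751% rising), with 7 to 18 called without any 1 library other than ASO-1570 replicate 3 and 183 without that one. Of the events tested at both doses in U87MG, 2241 were called at both, which was 58.8% of those called at 200 nM and 82.6% of those called at 50 nM, and 1 of them had opposite directions. In MDA-MB-231, 22 were called at both doses, or 7.46% and 73.3%, of which 11 fell, 10 rose and 1 had opposite directions. The 2 doses were separate experiments with different depth, so dose and experiment cannot be told apart and no difference between doses was tested.

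FAT1, ADD3 and CNN3 were among the few exons called in MDA-MB-231 at 50 nM. The FAT1 exon had PSI 0.05, 0.047 and 0.023 with ASO-1570 and 1.0 in all 3 ASO-CTL libraries. The ADD3 exon had 0.461, 0.496 and 0.474 with ASO-1570 and 0.218, 0.23 and 0.211 with ASO-CTL (limma adjusted p = 0.0275), but it missed the threshold without any 1 library other than ASO-1570 replicate 3. The calls of FAT1 and CNN3 held without any 1 library. The SEC31A exon averaged 0.708 with ASO-1570 and 0.986 with ASO-CTL, and the CTNND1 exon 0.419 with ASO-1570 and 0.043 with ASO-CTL, and neither passed the test.

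No member was called with the TRA2B siRNA, of 13708 tested in MDA-MB-231 and 14374 in U87MG, and the background was 0% of all events in both lines. At an unadjusted limma p below 0.05 and a difference of at least 0.10, 669 members (4.88%) passed in MDA-MB-231, against 4.03% of all events, and 594 (4.13%) in U87MG, against 3.69%. Exons that ASO-1570 had shifted stayed near their control levels. For the 2399 falling events of U87MG that had siRNA values, the median PSI difference was -0.213 with 200 nM ASO-1570 and -0.0007 with the TRA2B siRNA, where 90% of events lay between -0.09 and 0.084. For the 174 such events of MDA-MB-231 the medians were -0.311 with ASO-1570 and -0.0013 with the siRNA. The siRNA effect differed between the lines in 0 of 11956 members by the limma interaction, against 0.00573% of all events, and an unadjusted p below 0.05 with a difference of at least 0.10 was met by 409 of these members, against 1632 of 52392 events of all types. The siRNA and the oligonucleotide were used in separate experiments, and TRA2B gene level was 22.2 CPM with the TRA2B siRNA and 192 CPM with the control siRNA in MDA-MB-231, and 25.5 CPM with the TRA2B siRNA and 181 CPM with the control siRNA in U87MG.

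Single exons showed the same contrast. SEC31A had PSI 0.992, 0.984 and 0.988 with the TRA2B siRNA and 0.988, 0.985 and 0.991 with the control siRNA in MDA-MB-231, and 0.956, 0.955 and 0.959 with the TRA2B siRNA and 0.957, 0.943 and 0.953 with the control siRNA in U87MG. HNRNPK was at 0.999 or 1.0 in all 12 siRNA libraries. CTNND1 had 0.047, 0.046 and 0.075 with the TRA2B siRNA and 0.051, 0.024 and 0.075 with the control siRNA in MDA-MB-231, so its groups overlapped. For ADD3 the siRNA values lay on the other side of their controls than the oligonucleotide values did: 0.141, 0.132 and 0.126 with the TRA2B siRNA and 0.236, 0.235 and 0.225 with the control siRNA in MDA-MB-231 (difference -0.099, limma adjusted p = 0.397). The FAT1, NUP42, BAZ2A and TAF1 exons had no siRNA value to compare.

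Without a called member, exons were looked for whose libraries did not overlap and differed by at least 0.10 the same way in both lines. This rule was chosen after the values were seen. It gave 63 falling and 28 rising events of 7284 tested in both lines, 1.25%, against 0.928% of all events, and 6 events that moved in opposite directions. The exon of 81 bases in ADAL, an adenosine deaminase-like protein (chr15:43347016-43347096), had PSI 0.396, 0.484 and 0.472 with the TRA2B siRNA and 0.811, 0.747 and 0.733 with the control siRNA in U87MG, and 0.308, 0.571 and 0.573 with the TRA2B siRNA and 0.827, 0.713 and 0.731 with the control siRNA in MDA-MB-231. The ADAL exon also fell with 200 nM ASO-1570 in U87MG, to a mean of 0.52, against 0.74 with ASO-CTL, but not in MDA-MB-231, where the means were 0.644 with ASO-1570 and 0.613 with ASO-CTL. An exon of NISCH, an imidazoline receptor-like protein of the cytosol, had 0.58, 0.564 and 0.668 with the TRA2B siRNA and 0.31, 0.434 and 0.342 with the control siRNA in U87MG, and it rose with ASO-1570 in that line, to 0.768, against 0.458 with ASO-CTL. An exon of GGCT, a glutathione-pathway cyclotransferase, was lower with the TRA2B siRNA in both lines, at means of 0.2 with it and 0.527 with the control siRNA in U87MG, and 0.141 with it and 0.365 with the control siRNA in MDA-MB-231. With 200 nM ASO-1570 the GGCT exon did not fall alike, and moved by 0.077 in U87MG and by -0.037 in MDA-MB-231.

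In the xenograft, none of 13294 tested members was called, and the background was again 0% of all events. At an unadjusted limma p below 0.05 and a difference of at least 0.10, 278 members passed (2.09%), against 2.8% of all events, 72 of them lower and 206 higher with ASO-1570. The library means of tested members ranged from 0.743 to 0.767 with ASO-1570 and from 0.741 to 0.766 with ASO-CTL. The 3 members with the smallest p among those whose groups did not overlap are given with their values. The exon of 111 bases in CCT6B, a chaperonin subunit, had PSI 1.0, 0.979, 1.0, 1.0 and 1.0 with ASO-1570 and 0.797, 0.836, 0.767, 0.891 and 0.85 with ASO-CTL (difference 0.168, SE 0.027, limma adjusted p = 0.763). SLC2A11, a sugar transporter, was at 1.0 in all 5 ASO-1570 libraries and between 0.867 and 0.945 with ASO-CTL. ARMC9, a ciliary protein, was between 0.983 and 1.0 with ASO-1570 and between 0.857 and 0.93 with ASO-CTL. None of the 3 was called in a cell line comparison.

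The level of the genes that hold called exons was read from the count tables. At 200 nM in U87MG, 1712 of the 2674 genes with a called member that entered the edgeR fit were called, 688 up and 1024 down, which is 64%, against 49.7% of all genes (edgeR adjusted p below 0.05). In MDA-MB-231 it was 118 of 300, 35 up and 83 down, or 39.3%, against 25.2%. At 50 nM it was 1319 of 1839 genes in U87MG, or 71.7%, against 54.6%, and 11 of 32 in MDA-MB-231, or 34.4%, against 23.3%. The median log2 change of these genes at 200 nM was -0.09 in U87MG, against 0.02 over all genes, and -0.11 in MDA-MB-231, against 0. Genes with a called member needed a PSI value in every library, and the background of all genes was not matched for expression. No comparison was made with genes whose tested members were all uncalled. CTNND1, whose exon rose, fell in gene level to 88.9 CPM with ASO-1570, against 132 CPM with ASO-CTL in U87MG, and to 126 CPM, against 207 CPM, in MDA-MB-231 (edgeR log2 changes -0.57 and -0.72, adjusted p = 0.00955 and 0.00604). HNRNPK gene level rose by 0.5 on the log2 scale in U87MG (edgeR adjusted p = 5.76e-05), and RBM39 rose by 1.04 (edgeR adjusted p = 2.8e-06). CCNE1 did not pass the test in either line, at 16.6 CPM with ASO-1570 and 17.7 CPM with ASO-CTL in U87MG (edgeR adjusted p = 0.237).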

How the data were processed

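PSI values are fractions (0 to 1) made by the authors with rMATS, per the names of the deposited tables, and the authors' gene tables hold raw counts. Per the labels' protocols, libraries came from a stranded mRNA kit, and per the submitters' processing notes FastQC, MultiQC, Trimmomatic, STAR, StringTie and GRCh38 (hg38) were used, with versions and roles not given in the sources used here. Pooled copies of the 200 nM tables were not used. The members, gene lists and tests were chosen with earlier results of these data known. Named exons are the TRA2B exon, the largest non-overlapping called changes, exons called in both lines, the smallest p for the line difference, called exons of the host gene lists, and the smallest p where nothing was called. Each comparison was fitted over all events with limma 3.58.1 (R 4.3.3, trend), treated against control, with Benjamini-Hochberg adjustment over all events tested. Line differences used a 4-group interaction. Gene counts were fitted with edgeR 4.0.16 (quasi-likelihood, TMM, low-count filter). Exact permutation tests were two-sided. The fits were tested on simulated data. Exons were annotated with GENCODE release 29. Alternatives were no range filter, incomplete events, log2 odds, a shared fit, a replicate block, a limit of 0.20, 1 event per exon and leaving out each library. The exon of 1 gene is not reported here.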

Additional observations from a re-analysis of the deposited data

Results flagged for a closer look

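For 23 named exons the change with 200 nM ASO-1570 differed between the lines, by a limma interaction with adjusted p below 0.05. Differences are the change in MDA-MB-231 minus the change in U87MG. Among exons that fell more in U87MG, the difference was 0.578 for AKR1C2, 0.54 for BAZ2A, 0.427 for CDC42BPA, 0.42 for CCNE1, 0.415 for TAF1 and 0.415 for ZNF316. It was 0.352 for ARHGEF11, 0.347 for HIPK3, 0.338 for CASK, 0.302 for CAST, 0.294 for SEC31A, 0.252 for ADAL, 0.245 for KLC1, 0.236 for CALD1 and 0.203 for PPFIBP1. Exons with a larger positive change in U87MG were those of PKM at -0.477, ARHGAP17 at -0.362, CD44 at -0.243 (90 bases) and -0.187 (102 bases), NISCH at -0.239, CEP95 at -0.236 and CTNND1 at -0.216. For CEP95 the ASO-CTL libraries, not the ASO-1570 libraries, stood away from the siRNA controls in U87MG. The rise was larger in MDA-MB-231 for VTI1B, at 0.32.

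In the xenograft, 3 of the 12 groups of 5 libraries examined had 1 library far from the others. Chance gives about 1 in 20 for values without a ceiling, which applies to none of the 3. The other values of CCT6B and ARMC9 stood at 1.0, and both exons were picked for groups that do not overlap. The TRA2B exon was likewise near full inclusion, close to the ceiling of 1.0. The lowest ASO-1570 value was 0.979 for CCT6B and 0.983 for ARMC9, and the lowest ASO-CTL value for TRA2B was 0.823.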

How the results depend on the processing

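Counts are of called members. In MDA-MB-231 at 200 nM (347) the count was 149 without the range filter, 824 on log2 odds, 1067 with all groups in 1 fit, 230 with 1 event per exon, and 44 to 854 leaving out 1 library. In U87MG at 200 nM (4646) it was 2574 at a limit of 0.20, 3025 with 1 event per exon, and 3380 to 4851. In MDA-MB-231 at 50 nM (33) it was 13, 162 and 324 without the filter, on log2 odds and with all groups, and 7 to 183. In U87MG at 50 nM (2853) it was 1629 at 0.20, and 1115 to 3417. With the siRNA (0) MDA-MB-231 gave 1 without the filter, 13 with incomplete events, 17 with all groups and 0 to 5, and U87MG gave 1, 23, 24, 2 on log2 odds, and 0 to 3. The xenograft (0) gave 3 with incomplete events. The line difference at 200 nM (2365) was 1507 on log2 odds, 1153 at 0.20, 1575 with 1 event per exon, and 1845 to 2894, and at 50 nM (1216) 589, 637 and 624 to 2104, the last without U87MG ASO-1570 replicate 3. For the siRNA (0) it was 5 with incomplete events, 1 on log2 odds, and 0 to 7. Host genes called in MDA-MB-231 at 200 nM (118) were 70 with 2 groups fitted, and 70 to 135, and at 50 nM (11) 7 to 11. The TRA2B exon difference without 1 library was 0.192 to 0.319 and 0.36 to 0.427 at 200 nM and 0.164 to 0.264 and 0.351 to 0.418 at 50 nM in MDA-MB-231 and U87MG, -0.027 to 0.079 and 0.009 to 0.04 with the siRNA, and -0.001 to 0.044 in the xenograft. The cause was not tested. The depth behind single PSI values is unknown.

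Pairing of samples by replicate number was looked for in how far each library lay from its group mean at each tested event. Between same-numbered treated and control libraries these deviations correlated at -0.009 to 0.027 in the cell lines and -0.174 to 0.137 in the xenograft. No pairing was seen, but noise in single PSI values, whose depth is unknown, could hide one. With the replicate block 0 members were called in MDA-MB-231 at either dose, 3195 and 928 in U87MG at 200 nM and 50 nM, and the line difference gave 1272 and 0.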
